A study of Homo sapiens with 3 samples.

Results

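Of 917 peaks of estrogen-related receptor gamma (ERRγ) centred within 1000 bp of an annotated transcription start site (TSS) in BT-474 cells, 201 had fewer than 3 CpG dinucleotides per 100 bases and are called CpG-poor here. The other 716 promoter peaks, at or above that content, are called CpG-rich, and the whole list held 15223 peaks. The 201 CpG-poor peaks lay on 23 chromosomes and named 198 genes. Compared with CpG-rich promoter peaks, their centres lay farther from the TSS, though CpG islands lie at start sites, so position and the rule are related. Their genes more often had a further ERRγ peak 1 to 50 kb away, and fewer of the genes named were protein-coding. The intervals of these measures did not overlap between the classes, though the protein-coding share was near that of all peaks. For the further peak no share over all peaks was taken, so which class departs from the list is not known. The intervals of the median peak score overlapped between the classes.

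BT-474 is an established luminal breast tumour cell line, of human origin, in which the ERBB2 gene is amplified. Its chromatin was precipitated with a custom ERRγ antibody and sequenced (ChIP-seq) in 2 libraries, beside 1 library of input DNA. All 3 came from vehicle-treated cells in regular DMEM, 90 min after the medium was renewed, and no other treatment, genotype or cell line was compared. The deposited table was 1 merged peak list on hg19 without a value per library, so there is no replicate spread, the read depth is unknown here, and no test between groups was possible. The intervals given are exact 95% intervals that cover counting error only. Binding alone does not check the identity of the cells. Of 16 luminal marker genes 1, TFF1, had a CpG-poor promoter peak (6.25%). None of 12 basal and stromal or 15 immune markers did, which allows shares of up to 25% and 20%. These limits lie above the 0.818% of all protein-coding genes, and no gene of these lists had a CpG-rich promoter peak. The counts are too small to set the lists apart.

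Vertebrate genomes have lost most CpG dinucleotides, because methylated cytosine mutates readily. Most promoters of widely used genes escape this within unmethylated CpG islands, whereas CpG-poor promoters more often belong to genes used in few tissues and more often carry a TATA box. ERRγ (gene ESRRG) is an orphan nuclear receptor that binds as a monomer or dimer to the sequence TNAAGGTCA, in which N is any base, and is known for activating genes of mitochondrial energy metabolism.

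Of the CpG-poor peaks, 98 named a gene with exactly 1 RefSeq promoter window, the 250 bases before to 50 bases after the start, and these windows stood for 97 genes. The windows of 5 genes held TNAAGGTCA on either strand (5.15%, interval 1.69 to 11.6%), against 8 of 432 CpG-rich genes (1.85%, 0.803 to 3.62%) and 0.99% of all 22114 genes with 1 window. These stretches are shown because, among members with exactly 1 window, theirs are the annotated promoters that spell the receptor's own element. Only 150 CpG-poor peaks named a gene with any window. The other members, TFF1 and NR0B2 among them, could not be searched. The stretches are from RefSeq, GRCh38.p14, in the direction of transcription, with the element in capitals. An element on the opposite strand reads TGACCTTGA or TGACCTTCA here.
ACP3, chr3:132317157-132317254, plus strand: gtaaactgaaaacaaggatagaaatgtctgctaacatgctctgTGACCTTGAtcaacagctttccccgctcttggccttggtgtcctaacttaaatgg
NDUFB4, chr3:120596250-120596349, plus strand: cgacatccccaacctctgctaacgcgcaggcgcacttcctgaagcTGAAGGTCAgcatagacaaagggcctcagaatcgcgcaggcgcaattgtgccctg
ECM1, chr1:150507875-150507974, plus strand: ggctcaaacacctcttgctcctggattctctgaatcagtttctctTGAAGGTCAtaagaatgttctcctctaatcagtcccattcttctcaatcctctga
TMPRSS3, chr21:42389262-42389361, minus strand: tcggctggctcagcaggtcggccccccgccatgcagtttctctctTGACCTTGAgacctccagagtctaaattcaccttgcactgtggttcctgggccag
TSPAN1, chr1:46174889-46174988, plus strand: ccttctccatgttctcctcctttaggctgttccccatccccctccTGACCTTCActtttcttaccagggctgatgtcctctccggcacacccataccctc

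ACP3 encodes prostatic acid phosphatase, and its peak scored 540. NDUFB4, a subunit of respiratory complex I, scored 484. ECM1, a secreted matrix glycoprotein, scored 289. TMPRSS3, a membrane serine protease, scored 156 and had its element 39 bp from the peak centre. TSPAN1, a tetraspanin of epithelial membranes, scored 67.4 with the element 64 bp from the centre. In the other 3 the element lay 202 to 721 bp from the centre, farthest in NDUFB4. These distances assume that the RefSeq start is the TSS named in the peak table, and a match is a description of the letters in the window. Among members with several windows, ATP6V0A4, STS and WDFY3-AS2 each held the element in 1 of them.

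For comparison, 2 high-scoring CpG-rich promoters with the element are shown in the same way. HIGD2A, a factor of respiratory chain assembly, scored 3100, and PNPLA4, a lipid hydrolase, scored 2625.
HIGD2A, chr5:176388714-176388770, plus strand: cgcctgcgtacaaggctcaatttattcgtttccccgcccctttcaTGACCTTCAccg
PNPLA4, chrX:7927907-7927974, minus strand: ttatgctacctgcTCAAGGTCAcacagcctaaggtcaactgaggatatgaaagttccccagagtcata

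The table's score, whose unit its header does not name, ranks peaks within the list. The first 5 CpG-poor peaks tied at 3100, a value shared by 158 peaks of the list. TAPBPL encodes a relative of tapasin that edits peptides on MHC class I; its peak lay 236 bp downstream of the TSS, and the transcript annotated there was of CD27-AS1. CCNB1IP1 encodes a ubiquitin ligase, and its peak centre lay 506 bp downstream of the start. ATP1B1 encodes the beta subunit of the sodium-potassium pump; its peak, centred 37 bp upstream, was the widest CpG-poor peak at 9029 bp. MB encodes myoglobin, the oxygen-binding haem protein of muscle, and its peak (hg19 chromosome 22, 36018231 to 36020092) lay in the first intron with a CpG content of 1.13%. PA2G4P4, a pseudogene, had the other, 822 bp upstream of its start.

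The next 10 by score ran from 2372 to 1050. DNAJC5B, a cysteine-string co-chaperone, scored 2372, and IQCK, a protein with an IQ motif, scored 2056. CHD2, a chromatin remodeller, scored 1970 at 949 bp downstream, with a conservation score of 0.78. RIMS1, a scaffold of the presynaptic active zone, scored 1668 with 0.438% CpG. BATF, a bZIP transcription factor of lymphocytes, scored 1563 at 650 bp upstream. TPM3, a tropomyosin, scored 1242. COX7B, a subunit of cytochrome c oxidase, scored 1210, and MRPL48, of the large mitochondrial ribosomal subunit, scored 1185. PAQR7, a membrane progestin receptor, scored 1137 at 979 bp upstream. ATP6V0A4, a subunit of the proton-pumping V-ATPase, scored 1050 at 47 bp upstream.

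Most promoter peaks at genes of energy metabolism were CpG-rich. Over 6 pooled lists, covering the respiratory chain, the TCA cycle, fatty acid oxidation, glycolysis and the mitochondrial ribosome, 6 of 223 genes (2.69%) had a CpG-poor promoter peak and 72 (32.3%) a CpG-rich one. Among all 20037 protein-coding genes the shares were 0.818% and 3.36%. The 6 genes were COX7B, MRPL48, NDUFB4, NDUFS4, HK1 and PFKM. NDUFS4, a complex I subunit, scored 359, and PFKM, the muscle phosphofructokinase of glycolysis, scored 63.0 at 152 bp downstream. HK1, hexokinase, which starts glycolysis, had a CpG-poor peak of score 203 and a CpG-rich one of score 927. None of the 27 TCA cycle genes had a CpG-poor promoter peak, which allows a share of up to 11.1%, while 10 had a CpG-rich one. None of the 20 genes of fatty acid oxidation did, allowing up to 15%, and 2 had a CpG-rich one.

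Nuclear receptors had 3 of 48 genes (6.25%) in each class. Of all protein-coding genes 0.818% had a CpG-poor and 3.36% a CpG-rich promoter peak, also for the lists that follow. The numbers are small, and no list was tested against these shares. NR0B2, the small heterodimer partner that represses other receptors, scored 453 at 172 bp upstream (hg19 chromosome 1, 27240111 to 27241367). NR1D1, the clock repressor REV-ERBα, scored 116 at 523 bp upstream. NR2F2, the orphan receptor COUP-TFII, scored 60.7 and had the highest conservation score of all members, 0.93. Of 30 estrogen response genes, 2 were CpG-poor and 2 CpG-rich (6.67% each). TFF1, the secreted trefoil peptide induced by estrogen, was one of the CpG-poor pair, with a score of 517 at 223 bp upstream (hg19 chromosome 21, 43786218 to 43787517). TMPRSS3, whose element is printed above, was the other. Of 32 described ERR targets, 2 were CpG-poor (6.25%), TFF1 and NR0B2, and 9 CpG-rich (28.1%).

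Redox and drug-handling genes added 2 of 41, TXNRD1 and ABCC2, against 3 CpG-rich. TXNRD1, the cytosolic thioredoxin reductase, scored 227 at 816 bp upstream. ABCC2, an exporter of conjugated drugs and bilirubin, scored 219 at 48 bp upstream. None of 35 glutathione genes was CpG-poor, allowing up to 8.57%, and 8 were CpG-rich. Of 56 cytochromes P450, 2 were CpG-poor, CYP3A43 and CYP1A1, and 2 CpG-rich (3.57% each). CYP1A1, the dioxin-induced monooxygenase, had no CpG in its peak and scored 60.1 at 958 bp downstream.

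Several gene families had CpG-poor promoter peaks and no CpG-rich one, in small numbers. They were the claudins, tight junction proteins, with 2 of 24 genes (CLDN12 and CLDN24), sarcomere genes with 1 of 35 (TPM3), interleukins and chemokines with 1 of 83 (CCL15), and olfactory receptors with 3 of 390 (OR1C1, OR4K5 and OR2W3). The olfactory share, 0.769%, was close to the 0.818% of all protein-coding genes. Solute carriers had 3 of 386 (SLC45A4, SLC3A1 and SLC26A7) and 13 CpG-rich. No CpG-poor promoter peak named a gene of the proteasome (34 genes, 1 CpG-rich) or the cytosolic ribosome (88 genes, 3 CpG-rich). Keratins (55), keratin-associated proteins (94), serpins (34), S100 proteins (21) and liver and plasma proteins (40) had neither a CpG-poor nor a CpG-rich one. These counts of 0 allow CpG-poor shares of up to 3.19% (keratin-associated proteins) to 14.3% (S100 proteins). Each limit lies above the 0.818%, so the lists are not set apart.

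Some further members were chosen after their values were seen, and not counted against a background. PGC, pepsinogen C, scored 866 at 572 bp upstream. CRISP3, a secreted cysteine-rich protein, scored 285 at 56 bp downstream, and KLK12, a kallikrein protease, scored 273. SCGB1D2, a secretoglobin known as lipophilin B, had the lowest score of all members, 50.6. UGT2B15, which conjugates androgens, scored 201, and STS, the steroid sulfatase that frees estrogen precursors, scored 295.

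**Figure D1:**
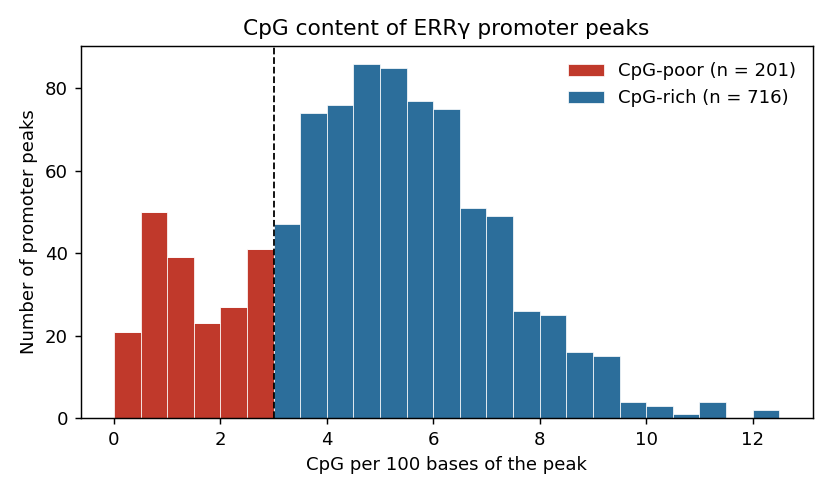
Number of promoter peaks by CpG content of the peak, in CpG dinucleotides per 100 bases, with the cutoff at 3. Counts fell from 50 peaks at 0.5 to 1 to 23 at 1.5 to 2 and rose again to 86 at 4.5 to 5, and the cutoff lies on that rise.

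The CpG content of promoter peaks had a low and a high mode, as the histogram of CpG content shows. Peaks just under the cutoff were ATP1B1 (2.96%), ZKSCAN3 (2.97%), ZNF175 (2.98%), SIKE1 (2.98%) and WDFY3-AS2 (2.9991%). Just at or above it were VTRNA1-2 (3%), FLVCR2 (3.01%), RNF14 (3.01%), CHASERR (3.03%) and MIR3677 (3.07%), with scores from 69.4 to 1496. CHASERR is the long non-coding RNA gene beside CHD2. The members farthest below the cutoff were CYP1A1 (0), SYTL5 (0.170%), CRISP3 (0.175%), ANGPTL1 and DIAPH3 (0.210%). By distance, the outermost members were PAQR7 at 979 bp, TWF2 at 980 bp and PIN4 at 984 bp, and the nearest CpG-poor peaks left out were NR3C1 at 1025 bp, DAPP1 at 1031 bp and OR13J1 at 1034 bp.

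The median score of CpG-poor promoter peaks was 138 (interval 121 to 177) and that of CpG-rich ones 171 (151 to 188). These intervals overlapped, and both medians lay above that of all peaks, 106 (105 to 108). In the upper 10% of all peaks by score stood 28 CpG-poor peaks (13.9%, 9.46 to 19.5%) and 139 CpG-rich ones (19.4%, 16.6 to 22.5%), where 10% is the share over the list by construction. Scores did not fall steadily with CpG content. Below 1 CpG per 100 bases the median was 117 (71 peaks), from 1 to 2 it was 190 (62 peaks) and from 2 to 3 it was 134 (68 peaks). The upper 10% held 4, 14 and 10 peaks of these 3 bins. Among peaks centred within 250 bp of the TSS the order of the classes turned, with medians of 210 (138 to 282) for CpG-poor and 158 (130 to 201) for CpG-rich peaks, and these intervals overlapped too.

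**Figure D2:**
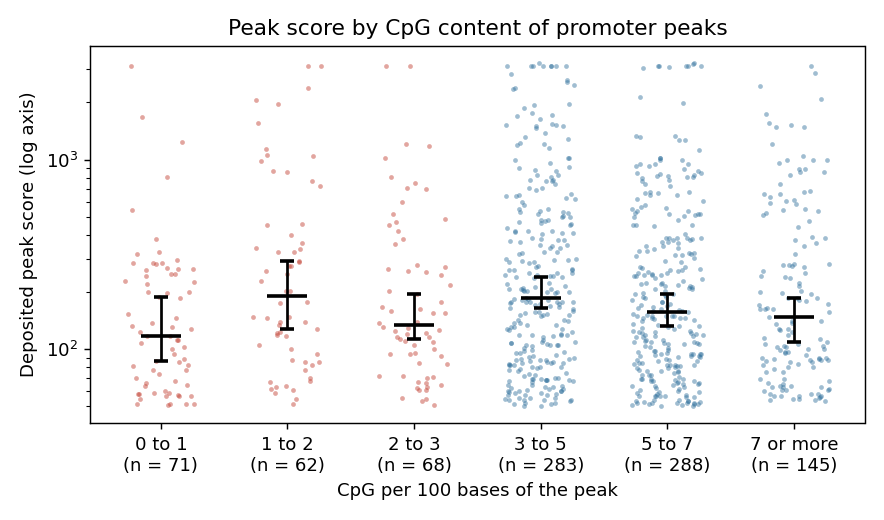
Peak score (logarithmic axis, unit not named by the table) against CpG content of the peak for promoter peaks, each point a peak, with bin medians. CpG-poor peaks spread from 50.6 to 3100, and the bin medians do not follow one direction.

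Peak widths were alike at the middle and differed in the upper tail. The median width was 1260 bp (1200 to 1310) for CpG-poor and 1257 bp (1225 to 1301) for CpG-rich peaks. Peaks wider than 2500 bp made up 19 CpG-poor (9.45%, 5.79 to 14.4%) and 20 CpG-rich (2.79%, 1.71 to 4.28%). Over all peaks 7.19% were that wide, inside the CpG-poor interval and above the CpG-rich one. CpG content was measured over the whole peak, so width and the rule are related. The widest members after ATP1B1 were OR1C1 at 8674 bp and OR4K5 at 6376 bp, both olfactory receptor genes, then MIR3119-2 at 4501 bp and ANAPC15, a subunit of the anaphase-promoting complex, at 4141 bp.

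The conservation intervals of the classes touched at the cutoff used. The median of the deposited conservation score was 0.10 (0.08 to 0.11) in CpG-poor and 0.12 (0.11 to 0.13) in CpG-rich peaks, against 0.07 in all peaks. CpG-poor peaks had the lower median under all 12 alternatives tried, and at a cutoff of 4 CpG per 100 bases the intervals separated, with 0.09 (0.08 to 0.11) against 0.13 (0.12 to 0.14). By CpG content the median was 0.07 below 1 CpG per 100 bases, 0.10 from 1 to 2, 0.11 from 2 to 3, 0.10 from 3 to 5, 0.135 from 5 to 7 and 0.16 above that. A score of 0.3 or more was reached by 22 CpG-poor (10.9%) and 73 CpG-rich peaks (10.2%), and by 6.25% of all peaks. Besides NR2F2 and CHD2, the highest members were TNRC6B, a partner of Argonaute in gene silencing, at 0.78, PPP2R3A, a phosphatase 2A regulatory subunit, at 0.63, and TOB1, an antiproliferative protein, at 0.51. TARP and IQCK stood at 0, and GSTA3, SLC45A4 and ALDH3B2 at 0.01.

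**Figure D3:**
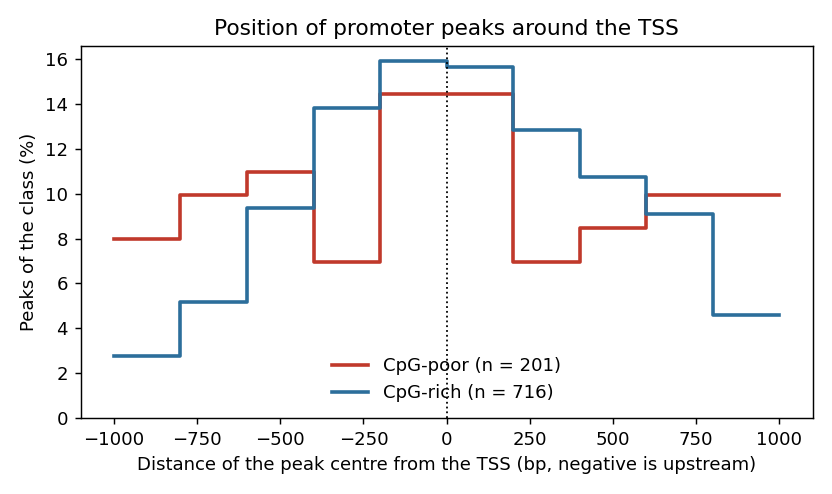
Distribution of peak centres around the TSS in 200 bp bins, as percent of the peaks of each class. CpG-rich peaks were most frequent next to the TSS (15.9% in the 200 bp before it), while CpG-poor peaks also filled the outermost bins (7.96% from 1000 to 800 bp upstream, against 2.79%).

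CpG islands lie at start sites, so the position of a peak and the rule are related. The median absolute distance to the TSS was 509 bp (422 to 552) for CpG-poor and 321.5 bp (296 to 352) for CpG-rich peaks. Centres 500 to 1000 bp away made up 103 CpG-poor (51.2%, 44.1 to 58.3%) and 228 CpG-rich peaks (31.8%, 28.4 to 35.4%). Upstream and downstream positions were balanced, with 101 and 100 members. The peak covered the TSS in 135 members (67.2%, 60.2 to 73.6%) and in 560 CpG-rich peaks (78.2%, 75.01 to 81.2%). A further ERRγ peak named for the same gene, 1 to 50 kb from its TSS, was listed for 86 members (42.8%, 35.8 to 49.9%) and for 175 CpG-rich peaks (24.4%, 21.3 to 27.8%). Each peak names its nearest TSS, so this count also depends on how near the next gene lies. The part of that spacing was not tested. No share over all peaks was taken for this count, so which class departs from the list is not known.

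The members' shares of protein-coding and long non-coding RNA genes were close to those of the whole list. Protein-coding genes were named by 167 CpG-poor (83.1%, 77.2 to 88.0%) and 674 CpG-rich peaks (94.1%, 92.2 to 95.7%). The share over all peaks was 85.8%, inside the CpG-poor interval and below the CpG-rich one. MicroRNA genes were named by 13 (6.47%, 3.49 to 10.8%) and 2 (0.279%, 0.0338 to 1.01%), against 3.27% of all peaks. Long non-coding RNA genes were named by 13 (6.47%, 3.49 to 10.8%) and 25 (3.49%, 2.27 to 5.11%), where the intervals overlapped, and by 7.15% of all peaks. A repeat was annotated at the centre of 7 CpG-poor (3.48%) and 20 CpG-rich peaks (2.79%), against 34.7% of all peaks. Chromosome 19 held 4 members (1.99%, 0.545 to 5.02%) and 61 CpG-rich peaks (8.52%, 6.58 to 10.8%). Of all peaks 1.80% lay there, near the members' share and below that of the CpG-rich class.

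**Figure D4:**
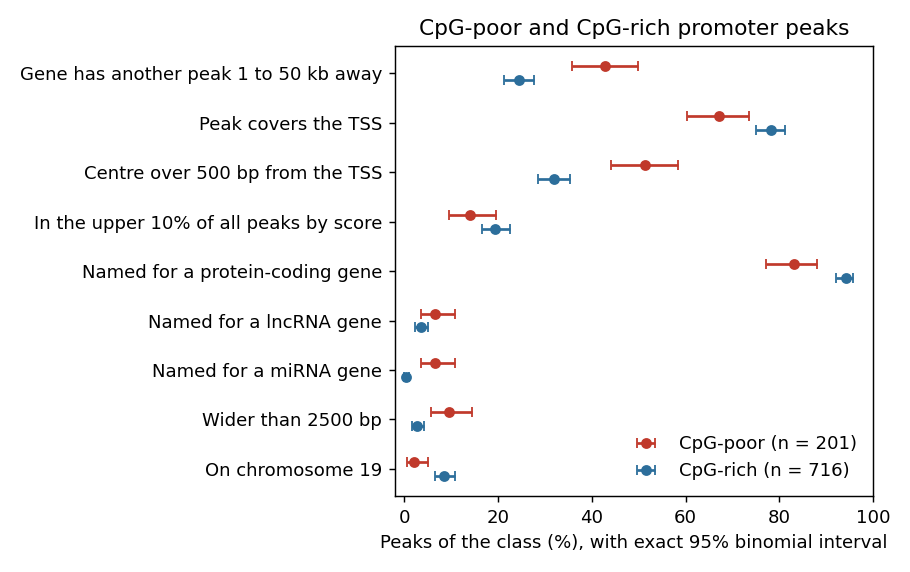
Percent of CpG-poor and CpG-rich promoter peaks with each property, with exact 95% intervals for counting error. The intervals of the classes overlap for the upper 10% by score and for lncRNA genes, and for none of the other 7 properties shown.

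For microRNA genes the start of the hairpin is taken as the TSS, so distances are to the hairpin. The highest score was that of MIR211, which lies in an intron of TRPM1 and is known from melanocytes, at 857 with a centre 858 bp upstream. MIR141, a member of the miR-200 family that keeps epithelial cells from taking a mesenchymal form, scored 93.9 at 141 bp downstream. MIR2117 scored 318 and MIR3935 scored 249. Their mature sequences are shown from RefSeq (GRCh38.p14) with the seed, bases 2 to 8, in capitals, the part that pairs with target RNAs. The other 9 microRNA members scored 51.1 to 326. No seed occurred in more than 1 of the microRNAs shown.
hsa-miR-211-5p, chr15:31065095-31065116, minus strand: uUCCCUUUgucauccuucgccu
hsa-miR-141-3p, chr12:6964155-6964176, plus strand: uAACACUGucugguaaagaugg
hsa-miR-2117, chr17:43444856-43444876, plus strand: uGUUCUCUuugccaaggacag
hsa-miR-3935, chr16:56245577-56245598, plus strand: uGUAGAUAcgagcaccagccac

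The label CpG-poor describes the peak and not always the promoter. Of the 98 members with exactly 1 RefSeq window, 52 (53.1%, 42.7 to 63.2%) had a window under 3 CpG per 100 bases and 46 (46.9%) one at or above it. Among CpG-rich peaks 9 of 433 windows (2.08%) were under it, and among all genes with 1 window 9806 of 22114 (44.3%). The split followed the peak's own content: 25 of 30 windows were CpG-poor for peaks under 1 CpG per 100 bases, 23 of 30 for 1 to 2, and 4 of 38 for 2 to 3. ATP1B1 shows the other case, with 41 of the 267 CpG of its 9029 bp peak in its 300 base window. In COX7B the window held 14 of 52 CpG and in NDUFB4 26 of 69, and both windows were CpG-rich.

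**Figure D5:**
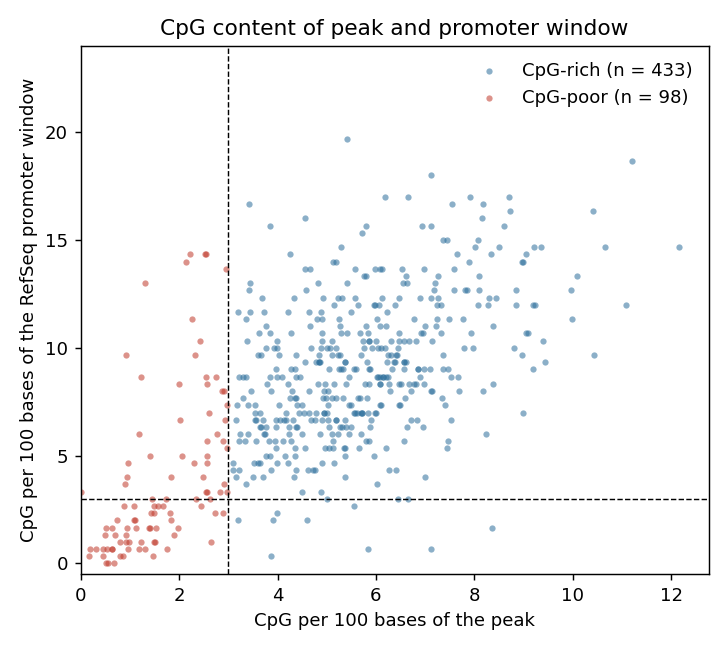
CpG content of the peak (horizontal) against CpG content of the RefSeq promoter window of its gene (vertical), both in CpG per 100 bases, for peaks of genes with 1 window. Left of the peak cutoff at 3, 52 points lie under the window cutoff and 46 at or above it.

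The members with CpG-poor windows had a median score of 155 (121 to 229) and a median absolute distance of 438 bp. Those with CpG-rich windows had a median score of 133 (94.98 to 257) and a distance of 586 bp, and the upper 10% by score held 4 and 10 of them. Of the 46 members with CpG-rich windows, the window lay inside the span of the peak for 24 by the distance to the TSS, partly for 8 and outside for 14. These 46 peaks stand for 45 genes. TNRC6B has 1 window but 2 peaks at different starts, so at most 1 of its 2 placements can hold. For IQCK and PLCH1 the window held more CpG than the whole peak, 39 against 18 and 18 against 14, so it cannot lie inside it and the RefSeq start is then not the TSS of the table.

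SEPTIN9, HK1 and ANK3 each had a peak of both classes at different starts. SEPTIN9, a cytoskeletal GTPase, had a CpG-poor peak of score 419 centred 32 bp upstream of a start, and a CpG-rich one of score 298 at 840 bp downstream of another. For ANK3, ankyrin-G, which anchors membrane proteins to the cytoskeleton, the scores were 93.96 and 104, on starts far apart on chromosome 10 (peaks from 61899162 and from 62491769 in hg19). HK1 had its CpG-poor peak 723 bp upstream of a start and its CpG-rich one 910 bp downstream of another. TNRC6B, VEPH1 and KAZN each had 2 CpG-poor peaks, for TNRC6B with scores of 985.3 and 71.4.

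Of the other motifs searched on both strands, the core AAGGTCA, which lies within TNAAGGTCA, was in 10 of the 97 CpG-poor genes (10.3%, 5.06 to 18.1%), 37 of 432 CpG-rich ones (8.56%) and 4.12% of all genes. The palindromic estrogen response element was in 0 of 97 and 0 of 432, and in 0.0769% of all genes. These counts of 0 allow shares of up to 3.73% and 0.850%, both above that of all genes, so neither class is set apart. The TATA motif TATAAA was in 16 CpG-poor (16.5%, 9.73 to 25.4%) and 24 CpG-rich genes (5.56%, 3.59 to 8.15%), with 12.7% over all genes. Split by window, it was in 12 of the 52 members with CpG-poor windows (23.1%), near the 22.7% of all genes with such windows. With CpG-rich windows it was in 4 of 45 (8.89%, 2.48 to 21.2%), against 4.70% of all such genes. The AP-1 motif TGANTCA was in 6.19% and 4.398% (8.05% of all genes), the GATA motif AGATAA in 9.28% and 5.32% (10.9%), and the forkhead motif TGTTTAC in 5.15% and 1.62% (3.5%). In the 52 members with CpG-poor windows these 3 shares were 9.62%, 13.5% and 9.62%. Over all genes with such windows they were 13.4%, 19.4% and 5.43%. TNAAGGTCA itself was in 4 of the 52 CpG-poor windows of members (7.69%, 2.14 to 18.5%), against 1.53% of all genes with such windows. In members with CpG-rich windows it was in 1 of 45 (2.22%, 0.0562 to 11.8%), against 0.561% of all such genes.

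A TATAAA on the sense strand that started 35 to 25 bases before the TSS was searched, a position chosen after values were seen. It was in 6 CpG-poor genes (6.19%, 2.30 to 13.0%) and 8 CpG-rich genes (1.85%, 0.803 to 3.62%), and these intervals overlapped. Over all genes the share was 2.7%, with 3.95% for CpG-poor windows and 1.71% for CpG-rich ones. The 60 bases before the start are shown for the 6 CpG-poor genes, as the members with exactly 1 window and a TATA box in its usual place. TATAAA is in capitals, and the sequences are from RefSeq (GRCh38.p14) in the direction of transcription.
PGC, chr6:41747398-41747457, minus strand: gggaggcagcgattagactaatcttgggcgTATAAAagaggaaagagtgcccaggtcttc
ECM1, chr1:150508049-150508108, plus strand: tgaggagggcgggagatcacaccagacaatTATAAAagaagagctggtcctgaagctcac
CCL15, chr17:36001554-36001613, minus strand: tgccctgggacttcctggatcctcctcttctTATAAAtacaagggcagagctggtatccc
ZG16B, chr16:2830243-2830302, plus strand: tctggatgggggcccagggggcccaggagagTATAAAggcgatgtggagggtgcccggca
TM4SF4, chr3:149474637-149474696, plus strand: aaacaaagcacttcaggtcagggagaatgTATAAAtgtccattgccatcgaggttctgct
CYP1A1, chr15:74725529-74725588, minus strand: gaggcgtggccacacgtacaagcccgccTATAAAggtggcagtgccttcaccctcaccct

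PGC, ECM1, CCL15, a chemokine, and ZG16B, a secreted lectin-like protein, encode secreted proteins, while TM4SF4 is a membrane protein and CYP1A1 an enzyme of the endoplasmic reticulum. ECM1 was the only one of the 6 whose window also held TNAAGGTCA. The windows of PGC (3%), ZG16B (3.33%) and CYP1A1 (3.33%) were CpG-rich, so genes with CpG-poor windows are not a like background for these 6. By the distance to the TSS, the peaks of TM4SF4 (695 bp upstream) and CYP1A1 (958 bp downstream) covered neither the start nor the TATAAA.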

How the data were processed

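ERRγ ChIP-seq was described for 2 ERRγ libraries and 1 input library of BT-474 cells. The submitters' processing notes name the tools BWA (version 0.5.9), MACS (1.4.1) and HOMER (3.18) and the build hg19, without roles. How peaks were thresholded, duplicates handled or libraries pooled is not given in the sources. The authors deposited 1 merged table. Per the file headers it gives for each peak a score, the distance to the nearest TSS in bp, and a mean conservation score. The GC and CpG content are deposited as a fraction between 0 and 1, although their headers carry a percent sign.

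From it, promoter peaks were taken within 1000 bp of a TSS and split at a CpG fraction of 0.03. Width was end minus start plus 1. Shares have exact Clopper-Pearson 95% intervals and medians exact binomial order-statistic 95% intervals; the limit for 0 observed is 3 counts over the list size. No test was run, since peaks of 1 list are not replicates, and each sample of the study has no value of its own in the list. Symbols and promoter windows came from RefSeq tables of GRCh38.p14 (914 of 917 promoter peaks matched); no coordinates were converted between builds. Genes were named by rank in score, CpG content, conservation and width, by nearness to the cutoff, and by membership of gene lists; others are said to be chosen after values were seen. The members and lists were chosen with earlier results of these data known. Scripts were tested on simulated data and run with Python 3.11.15, numpy 2.4.6, pandas 2.3.3 and scipy 1.17.1. Alternatives were other CpG and distance limits, the promoter annotation alone, higher scores, narrower peaks, the window class, protein-coding genes alone and any RefSeq window.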

Additional observations from a re-analysis of the deposited data

How the results depend on the processing

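Of 75 alternatives, 61 gave a value inside the interval of the reported one, or a count within 1.5 times, and 14 did not. The order of the class medians turned in 1 of 12 alternatives for the score (within 250 bp, CpG-rich 158) and in 5 of 12 for the width, with overlapping intervals each time; the cause was not tested where the construction does not show it. The number of CpG-poor promoter peaks was 133 at a cutoff of 2 CpG per 100 bases and 322 at 4, 98 within 500 bp of the TSS and 66 within 250 bp, 121 with the promoter annotation alone and 61 when the class came from the promoter window. The median score was 210 within 250 bp, 250.2 over scores of 100 or more and 117 up to a width of 1500 bp, the last 2 fewer peaks by construction. Median width was 1344 bp at scores of 100 or more and 1140 bp up to 1500 bp. The share in the upper 10% was 20.9% at scores of 100 or more and 5.11% up to 1500 bp. The share with TNAAGGTCA was 12.9% (3.63 to 29.8%) within 250 bp, against 2.81% (0.918 to 6.43%) for the CpG-rich class. These intervals overlapped. No paired analysis was possible because the table holds 1 merged list without a value per library. The read depth and the enrichment behind each peak are unknown here, so a gene without a peak may lie under the calling threshold. Each peak names its nearest TSS only, and RefSeq windows may belong to another start than the one in the table.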

Other observations

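For 8 CpG-poor peaks the annotated transcript belonged to a gene other than the one named by the nearest TSS. These were TAPBPL with CD27-AS1, TMEM79 with SMG5, WDFY3-AS2 with WDFY3, WDR12 with CARF, MIR141 with MIR200C, ZNF277 with DOCK4, MIR376A1 with MIR300, and FBXO44 with FBXO2. Over all chromosomes, 201 of 917 promoter peaks were CpG-poor. They made up 22 of 75 promoter peaks on chromosome 3 (29.3%), 12 of 40 on chromosome 17 (30%) and 9 of 25 on chromosome X (36%). Some other chromosomes had like shares, such as 1 (28.1%), 7 (28.9%), 8 (29.7%), 18 (29.4%) and 21 (37.5%, 3 of 8). Shares were lower on 13 (10.5%), 11 (10.9%), 10 (11.6%), 16 (12.2%), 5 (12.5%) and 20 (14.3%). Chromosome 19 had the lowest, 4 of 65 (6.15%).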
